A study of Mus musculus with 58 samples.

Results

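Steady-state (total) RNA of a library of 16461 short inserts was compared with genomic DNA (gDNA) of the same cells, at a site downstream of the antisense start of Pou5f1. The comparison was made of 4 total-RNA libraries and the 4 gDNA libraries that the labels pair with them, 8 of the 58 samples of the series. These 4 pairs, the only untreated total-RNA samples at that site, are called screens 1 to 4. All were mouse embryonic stem cells of the hybrid line F121-9, which carries mKate2 (a red fluorescent protein) at uaTSS +172 and TagBFP2 (a blue one) at the Oct4 C terminus, on the 129 allele of Pou5f1. The inserts, each 175 nt long, were integrated on that allele 157 nt from the upstream antisense start site (uaTSS) and ahead of mKate2. RNA was reverse transcribed with a primer in mKate2, 221 nt downstream of the inserts. A second set, 3 cultures (A, B and C) of the same line and site treated for 48 h with 40 nM control siRNA (siNT), gave 3 total-RNA and 3 gDNA libraries. It was used as a second reading of each insert. The labels do not say whether the 4 screens or the 3 cultures were separate integrations, so p-values measure only the spread between these samples. The gDNA of screen 4 also served 1 nascent-RNA sample of the series.

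Pou5f1 (chromosome 17, 35506032 to 35510777, GRCm38, protein-coding) encodes Oct4, a transcription factor that keeps stem cells pluripotent. Like most active mammalian promoters, it also fires away from the gene. Polymerases that leave in that direction usually terminate early and their RNA is degraded by the nuclear exosome, whereas polymerases in genes elongate, and their RNA is spliced and exported. An insert that is copied in full, and whose RNA is retained, is read in the RNA; one that ends transcription ahead of the primer, or whose RNA is degraded, is not. Total RNA does not tell transcription from stability. The comparison asks whether an insert takes a larger or smaller share of the RNA than of the integrated copies.

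In RNA, reads were counted on the whole insert (unspliced) and, for 2404 inserts, on shortened references with a segment removed (spliced). RNA here is the sum of both. The level of an insert in a screen is log2 of its RNA per gDNA, scaled by effective library sizes, with a prior count of 2. A level of 0 is about that of the typical insert, and levels are relative, not absolute. In the files an insert is only a number, with nothing to link it to a gene, a position or its bases, so no sequence is shown and at most 2 inserts per direction are named. No cell type marker can be read from amplicons of inserts.

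The screens differed in depth. RNA libraries of screens 1 to 4 held 2665226, 22739490, 24292270 and 94099800 reads on inserts, and gDNA libraries 1991728, 14956180, 13481092 and 28281302. Screen 1 was thus the shallowest on both sides. Spliced references took 19.1%, 8.31%, 9.97% and 22.4% of the RNA reads, so screens 2 and 3 were alike and low, and screens 1 and 4 high. The deposited names of the libraries of screens 2 and 3 carry a common code that screens 1 and 4 lack and that the labels do not explain, so values are given by screen where these pairs part. A minimum of 50 reads in each of the 4 gDNA libraries was passed by 10650 of the 16461 inserts (64.7%), which were tested. Of the 5811 others, 3676 missed the minimum in screen 1 alone and 95 had no gDNA read in any screen. The 721 inserts with a lowest count of 50 to 58 reads had a median level of -0.46, and the 756 just outside, at 40 to 48, of -0.41.

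Inserts differed widely in RNA per gDNA. Of the 10650 tested, 4328 (40.6%) were called, 2462 higher (23.1%) and 1866 lower (17.5%; edgeR quasi-likelihood test with the screen as a block, Benjamini-Hochberg adjusted p under 0.05). More of the lower calls were large: 894 of the 1866 fell by more than 4-fold, and 593 of the 2462 rose by as much. The level was above 0 in all 4 screens for 2418 of the 2462 called higher, and below 0 in all 4 for 1828 of the 1866 called lower. Among the 6322 inserts not called, 34.3% also kept 1 sign in all 4 screens. With library totals in place of TMM scaling, the median log2 fold change of all inserts moved by -0.57 and the split became 1436 higher and 3573 lower. Leaving out a screen also changed which inserts passed the minimum. Without screen 1 the lower calls were 825 of 14326 tested, and without screen 4 they were 869 of 10730. Without screen 4 all calls were 2678.

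The middle of the range of levels was alike in the screens, and its ends were not. From the 25th to the 75th percentile, levels ran from -1.16 to 1.04 in screen 1, from -1.05 to 0.82 in screen 2, from -1.33 to 0.88 in screen 3 and from -1.37 to 1.01 in screen 4. The 5th percentile was -3.00, -3.01, -5.79 and -3.27 in the same order, and only that of screen 3 stood apart. The 95th percentile was 2.48 and 2.52 in screens 1 and 4 and 2.02 and 2.08 in screens 2 and 3. Screen 3 had 539 tested inserts (5.06%) with no RNA read, against 109, 182 and 1 in screens 1, 2 and 4. Of these, 417 were at 0 in screen 3 alone. Their median level in the other screens was -1.96, and their median gDNA count in screen 3 was 298 reads, against 794 for all tested inserts. No tested insert was at 0 in all 4 screens, and 17 were at 0 in 3. The level of an insert with no RNA read is set by its gDNA reads and the prior count. In screen 3 the share of such inserts, 5.06%, was about the share below the 5th percentile. The -5.79 of screen 3 thus lies near these levels and is not a measured RNA level.

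**Figure D1:**
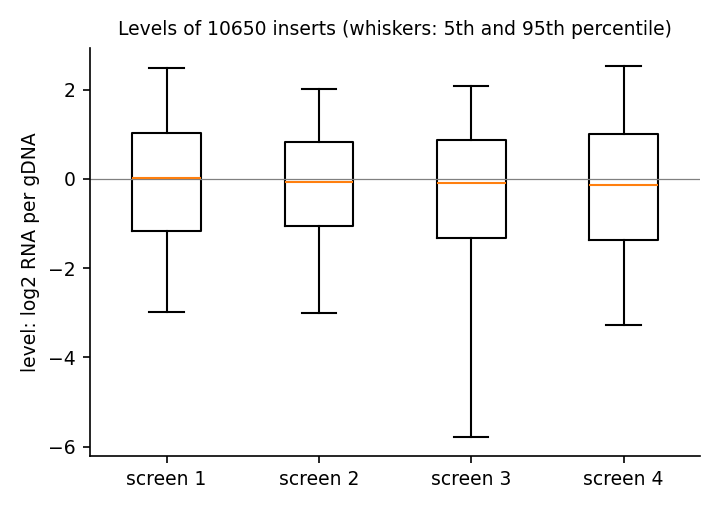
Levels (log2 RNA per gDNA) of the 10650 tested inserts in each of the 4 screens; boxes run from the 25th to the 75th percentile with the median as a line, and whiskers reach the 5th and 95th percentiles. The lower whisker of screen 3 ends at -5.79 and those of the other screens between -3.27 and -3.00. In screen 3, 5.06% of inserts had no RNA read, so its whisker lies near levels set by the prior count.

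RNA was concentrated on fewer inserts than gDNA. The inserts that together held the first 50% of RNA reads numbered 1769, 1756, 1592 and 1388 in screens 1 to 4. In gDNA, 3045, 3192, 2793 and 3165 inserts were needed. The groups did not overlap. The 164 most read inserts, 1% of the library, took 11.8% to 15.2% of RNA reads and 7.71% to 10.7% of gDNA reads.

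Which inserts were extreme differed from screen to screen more at the bottom than at the top. Of the 1065 highest inserts of each screen, 301 (28.3% of each list) were among the highest in all 4, and 171 of these 301 had a spliced reference, as had 1426 of the 10650 tested (13.4%). Of the 1065 lowest, 171 (16.1%) were among the lowest in all 4, and 3 of them had a spliced reference. In screen 3, 539 tested inserts had no RNA read, so their level was set by gDNA reads and the prior count. The part of such inserts in the lower agreement at the bottom was not tested. Only 25 inserts were among the highest in 1 screen and the lowest in another.

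The spread between screens, and with it the share of inserts called, moved with the number of gDNA reads. Over all tested inserts the median SD of the level over 4 screens was 0.71. It was 1.64 for the 215 inserts with a mean under 200 gDNA reads, 0.78 for the 3723 with at least 500 and under 1000, and 0.49 for the 1128 with at least 2000 and under 5000. The share called rose along the same bins, from 17.2% to 37.4% and 54.2%. The size of the calls went the other way: the median absolute log2 fold change of called inserts was 4.32 in the lowest bin and 1.40 from 2000 to under 5000 reads. Among rarely integrated inserts, small differences were not detectable at this depth. The median level rose with gDNA reads as well, from -1.51 under 200 reads over -0.35 from 500 to under 1000 to 0.54 from 2000 to under 5000. The 50 inserts with 5000 or more gDNA reads went the other way, with 28 called lower and 8 higher, and a median level of -1.32.

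**Figure D2:**
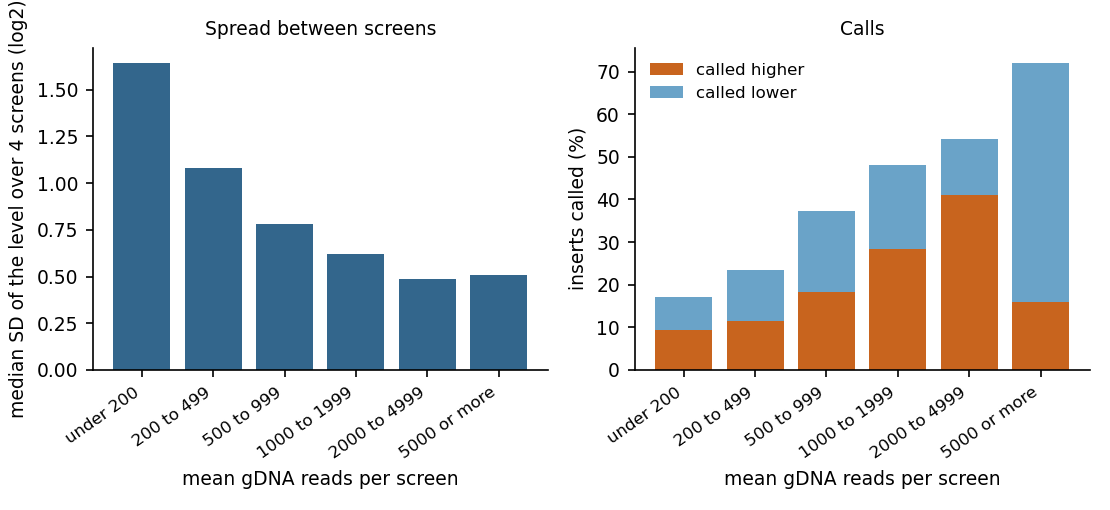
Inserts grouped by mean gDNA reads per screen. Left, bars give the median SD of the level over the 4 screens (log2), from 1.64 under 200 reads to 0.49 from 2000 to under 5000; right, stacked bars give the percentage of inserts called higher or lower, which reaches 72.0% in the 50 inserts with 5000 or more reads.

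Levels followed the insert number, that is, the place of an insert in the list of the library. Levels of the 9224 tested inserts without a spliced reference were taken in 33 consecutive blocks of up to 500 numbers, drawn with the levels known and described with no test. The block median was above 0 in all 4 screens in 11 blocks, below 0 in all 4 in 20 and of mixed sign in 2. Averaged over screens it ran from -1.52 to 0.86, and the median SD of a block median over the 4 screens was 0.19. The range of block medians was thus several times the spread between screens, although many neighbouring blocks differed by less than it, and single inserts within a block varied with a median SD of 1.31. Blocks accounted for 31.2% of the variance of levels across inserts.

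The blocks fell into a few long stretches, described here for inserts without a spliced reference. Inserts 1 to 5500 had median levels of 0.76, 0.53, 0.51 and 0.83 in screens 1 to 4 (0.66 ± 0.16, SD, n = 4). Inserts 8001 to 12000 had -1.11, -0.94, -1.21 and -1.38 (-1.16 ± 0.18, SD, n = 4). Every screen of the first stretch was above every screen of the second, by 1.82 ± 0.31 (SD, n = 4) within screens, a 3.52-fold higher RNA per copy. In the first stretch 1471 of 3625 tested inserts were called higher (40.6%) and 203 lower (5.60%). In the second 80 of 2113 were called higher (3.79%) and 748 lower (35.4%), against 19.7% and 19.0% of all tested inserts without a spliced reference. Between them, inserts 5501 to 8000 were at -0.58 ± 0.10 (SD, n = 4). After number 14000 levels changed from block to block: 0.09 ± 0.32 at 14001 to 14500, -1.46 ± 0.31 at 15001 to 15500 and 0.02 ± 0.10 at 16001 to 16461 (SD, n = 4). In the block 11001 to 11500 none of the 247 tested inserts of this class was called higher and 113 were called lower. The files do not say how the numbers were given or what the stretches hold.

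The abundance of the integrated copies moved with the number as well. The median of mean gDNA reads was 879 for inserts 1 to 5500, 630 for 5501 to 8000, 519 for 8001 to 12000, 442.5 for 12001 to 14000 and 849 from 14001 on. Within a narrow range of abundance the order of the stretches was the same. Among inserts with at least 1000 and under 2000 gDNA reads, median levels were 0.72 for numbers 1 to 5500 (1505 inserts), -0.45 for 5501 to 8000 (513 inserts) and -0.89 for 8001 to 12000 (626 inserts). With library totals in place of TMM, the medians over all tested inserts 1 to 5500 without a spliced reference were 0.14, 0.04, 0.06 and 0.13 in screens 1 to 4, just above 0, and those of 8001 to 12000 were between -2.08 and -1.43.

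**Figure D3:**
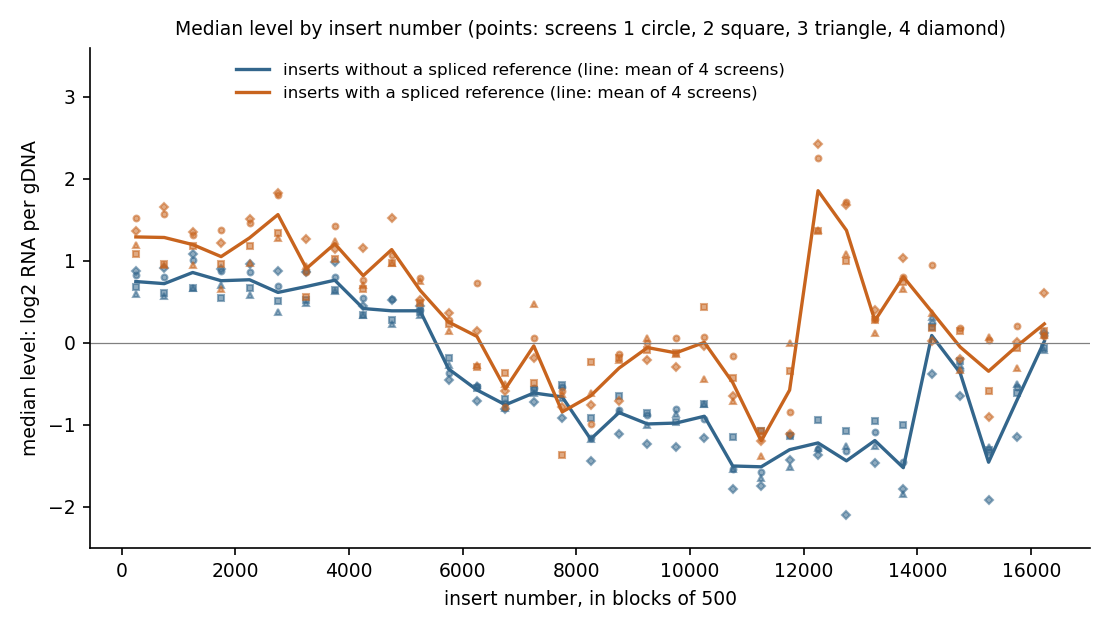
Median level (log2 RNA per gDNA) against insert number in blocks of 500, for inserts without a spliced reference (blue) and with one (orange). Points are the 4 screens and lines their mean; the blue line falls from 0.75 in the first block to -1.51 at 11001 to 11500, and the orange line peaks at 1.86 at 12001 to 12500.

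Inserts with a spliced reference had higher levels than the others. Splicing removes a segment between a donor and an acceptor site, and spliced RNA is bound by factors that aid its export and stability. Of the 1426 tested inserts with a spliced reference, 643 were called higher (45.1%) and 113 lower (7.92%), against 19.7% and 19.0% of the 9224 without one. The median level of inserts with a spliced reference exceeded that of the others by 1.10, 0.86, 0.86 and 1.30 in screens 1 to 4. The gap was positive in every screen, 1.03 ± 0.21 (SD, n = 4), and in an exact two-sided sign-flip permutation test 2 of the 16 sign assignments gave a gap as large, the fewest that 4 screens allow, so this test cannot reach a p of 0.05 here. It was larger in screens 1 and 4, which had the larger spliced shares, than in screens 2 and 3. The sources used here do not say by what rule an insert got a spliced reference, and an insert with more RNA has more chances to show a spliced read; the part of this in the gap was not tested.

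On unspliced reads alone the gap of the medians over the whole list was reversed, at -0.23, but it was not reversed within either part of the list described below, inserts 12001 to 14000 (0.15) and the others (0.23). In the unspliced count 2369 of all 10650 inserts were called higher (22.2%). Of the 643 inserts with a spliced reference that were called higher on all reads, 275 were also called higher on unspliced reads, 241 were not called and 127 were called lower. For 368 of the 643 the call was thus not made once spliced reads were left out.

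Inserts with a spliced reference were not spread evenly over the numbers. They made up 60.4% of inserts 12001 to 14000 (1207 of 2000) and 6.91% to 10.2% of the other stretches. In inserts 12001 to 14000 the 385 tested without a spliced reference had median levels of -1.26, -1.02, -1.41 and -1.56 in screens 1 to 4 (-1.31 ± 0.23, SD, n = 4). The 646 with one had 1.46, 1.01, 1.01 and 1.65 (1.28 ± 0.33, SD, n = 4). The stretch was not uniform. Averaged over screens, the block median with a spliced reference was 1.86 at 12001 to 12500 and 0.27 at 13001 to 13500. Without one it was -1.22 and -1.19 in the same blocks. The class medians of the screens did not overlap. Within screens they differed by 2.59 ± 0.50 (SD, n = 4), a 6.03-fold higher RNA per copy at the median. Among inserts of the stretch with at least 1000 and under 2000 gDNA reads, the medians were 1.27 with a spliced reference (171 inserts) and -1.13 without one (109 inserts). Single inserts of the classes did overlap: 32 of the 646 were called lower and 13 of the 385 called higher. The median spliced share of the 646 was 80.4%, 61.5%, 65.7% and 83.8%. Counted on unspliced reads alone, the same 646 inserts were at -1.27, -0.81, -1.20 and -1.34, and the gap to the 385 without a spliced reference was 0.15 ± 0.11 (SD, n = 4).

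Elsewhere in the list the picture was milder. The 780 tested inserts with a spliced reference outside 12001 to 14000 had a median spliced share of 2.41% ± 1.97 (SD, n = 4). Their level was 0.54 ± 0.09 on all reads and 0.09 ± 0.08 on unspliced reads (SD, n = 4). They exceeded inserts without a spliced reference outside that stretch by 0.68 ± 0.10 on all reads and 0.23 ± 0.02 on unspliced reads (SD, n = 4). Most of these inserts thus had little spliced RNA.

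**Figure D4:**
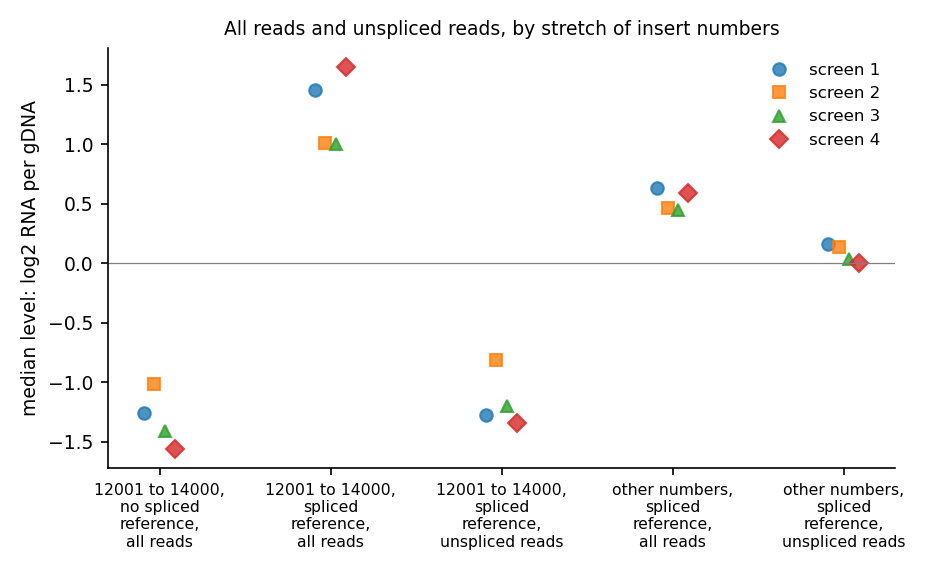
Median level (log2 RNA per gDNA) in the 4 screens for inserts 12001 to 14000 without a spliced reference, with one on all reads, and with one on unspliced reads, and for inserts of other numbers with a spliced reference on all and on unspliced reads. In the stretch 12001 to 14000 the all-read medians lie between 1.01 and 1.65 and the unspliced-read medians between -1.34 and -0.81.

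The spliced share was larger where a longer segment was removed, beyond 70 nt mainly in screens 1 and 4. Segments of 21 to 155 nt were removed, and 145 of the 2404 inserts had 2 or more spliced forms. For inserts with 1 form and under 70 nt removed (245 tested) the median spliced share was 0 in every screen, and their level was 0.39 ± 0.06 (SD, n = 4). With 70 to 94 nt removed (400 tested) the median spliced share was 35.8%, 21.9%, 26.8% and 36.1% in screens 1 to 4 and the level 1.06, 0.87, 0.88 and 1.10. With 95 to under 120 nt removed (370 tested) the share was 38.7%, 24.98%, 28.2% and 47.5% and the level 1.21, 0.88, 0.85 and 1.17. From 70 nt on, levels thus rose with the length removed in screens 1 and 4 and not in screens 2 and 3. For the 312 tested inserts with 120 nt or more removed, the share was 46.8% ± 24.2 and the level 1.02 ± 0.46 (SD, n = 4). Levels of the inserts with long segments were split by screen, at 1.34 and 1.49 in screens 1 and 4 and 0.70 and 0.57 in screens 2 and 3. Their spliced shares were split in the same way, 55.8% and 76.8% against 24.5% and 30.2%. On unspliced reads the order of the length groups was turned round: 0.27 ± 0.08 under 70 nt, -0.32 ± 0.10 at 70 to 94 nt and -1.08 ± 0.29 from 120 nt on (SD, n = 4). A spliced amplicon is shorter by the length removed, and the part of amplicon length in these counts was not tested. The length groups pool inserts 12001 to 14000, with a median spliced share of 72.8%, and the others, with 2.41%. How each length group divides between these parts was not examined, so the trends with length may not hold within either part.

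Among abundant inserts without a spliced reference, 1251 higher and 855 lower calls met the rule for naming, which asks for a mean of at least 1000 gDNA reads and 1 sign in every screen. The pair with the largest rises shows how far screens could differ. Insert sequence_03567 had 4492, 5634, 5224 and 164886 RNA reads in screens 1 to 4 against 328, 1232, 1240 and 1568 gDNA reads. Its levels were 4.09, 2.04, 1.64 and 5.68 (log2 fold change 3.32, SE 0.76, adjusted p = 0.0145 by edgeR's quasi-likelihood test), so it was high in every screen and highest in screen 4. Without screen 1, where 14326 inserts were tested, its call was lost (log2 fold change 3.05, adjusted p = 0.0673 by the same test). The log2 fold change was 2.56 without screen 4 and 3.97 without screen 3. In the siNT cultures its levels were 5.06, 5.26 and 5.76, above screens 1 to 3 and near screen 4.

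Insert sequence_03812 had 1538, 10944, 9010 and 28488 RNA reads against 50, 1664, 836 and 2248 gDNA reads. Levels were 5.21, 2.57, 2.99 and 2.63 (log2 fold change 3.28, SE 0.47, adjusted p = 0.00114 by edgeR's quasi-likelihood test). Screen 1, where it had the fewest gDNA reads allowed, gave the high value, and the others agreed closely with the siNT cultures at 2.52, 2.58 and 2.96.

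The pair with the largest falls was almost silent in screens 1 to 3 and less so in screen 4. Insert sequence_15026 had 0, 0, 0 and 448 RNA reads against 110, 1352, 520 and 2214 gDNA reads (adjusted p = 0.0135 by edgeR's quasi-likelihood test, 0.0545 without screen 1, with 14326 inserts tested). In screen 4 its level was -3.33, and in the siNT cultures, with 224, 200 and 204 RNA reads, -3.81, -4.09 and -3.06. Insert sequence_15341 had 2, 2, 0 and 554 RNA reads against 690, 2082, 1284 and 3518 gDNA reads (adjusted p = 0.00607 by the same test). Its level in screen 4 was -3.70, while the other screens lay between -9.76 and -7.11 and the siNT cultures between -8.90 and -7.30. The fitted folds of this pair depend on the prior count and are not given. Both carry numbers from the low block 15001 to 15500.

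The siNT cultures, which share no library with the 4 screens, gave a similar ranking of inserts with less spread. Of 10406 inserts tested there, 6730 (64.7%) were called against gDNA by the same test. Among the 8291 inserts tested in both, 3625 were called in the screens and 5411 in the siNT cultures, and 3249 in both with the same direction (89.6% of the screens' calls and 60.0% of the siNT calls). Only 10 were called in both with opposite directions. Mean levels correlated across these inserts with Pearson r of 0.867, a description, since inserts are not replicates and share the library and the primer. The median SD of the level within an insert was 0.47 over the cultures and 0.66 over the screens. Levels were also wider apart in siNT cells, with an SD across inserts of 1.91 against 1.53.

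The stretches of insert numbers were found again in these cultures. Inserts 1 to 5500 without a spliced reference were at 0.98 ± 0.05, those from 8001 to 12000 at -1.44 ± 0.02, and the inserts with a spliced reference among 12001 to 14000 at 1.67 ± 0.09 (SD, n = 3). Each of these means was farther from 0 than that of the untreated screens. For the last group the cultures ran from 1.57 to 1.73, with screen 4 at 1.65, so cultures and screens overlapped. Without a spliced reference, inserts 5501 to 8000 were at -0.58 ± 0.01 and those from 14001 on at -0.34 ± 0.04 (SD, n = 3). The screens were at -0.58 and -0.33 there. Over the 33 blocks, medians of the siNT cultures and of the screens had a Pearson r of 0.994, again a description.

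The difference between untreated and siNT cells was itself tested, and few inserts passed. The siNT cultures are a separate set of libraries, so siRNA treatment cannot be told apart from the set. Of 8291 tested, 55 (0.663%) differed in RNA per gDNA, 32 higher and 23 lower in the untreated screens (interaction in edgeR's quasi-likelihood fit, adjusted p under 0.05), and 1094 had an unadjusted p under 0.05. In all 55 the 4 screens lay on 1 side of the 3 cultures. The test that selected them used the same libraries, so this separation is not a separate result. The 32 were moderate in the untreated screens and very low in the siNT cultures, with median levels of -0.83 and -5.05, and 1 of them had a spliced reference. The 23 were high in the untreated screens and higher in the siNT cultures, with medians of 1.38 and 3.50, and 12 of them had a spliced reference, against 1052 of the 8291 tested. Count and split were unstable. The split was 35 higher and 12 lower with DESeq2 size factors and 40 and 12 with library totals. Leaving out 1 library pair at a time gave 10 (10 higher, 0 lower, without culture C) to 129 (60 and 69, without screen 4), with 34 (29 and 5) without culture A, 19 (17 and 2) without culture B, 20 (13 and 7) without screen 1 and 24 (19 and 5) without screen 2. The inserts tested in these fits ranged from 8303 (without screen 2) to 10122 (without screen 1).

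**Figure D5:**
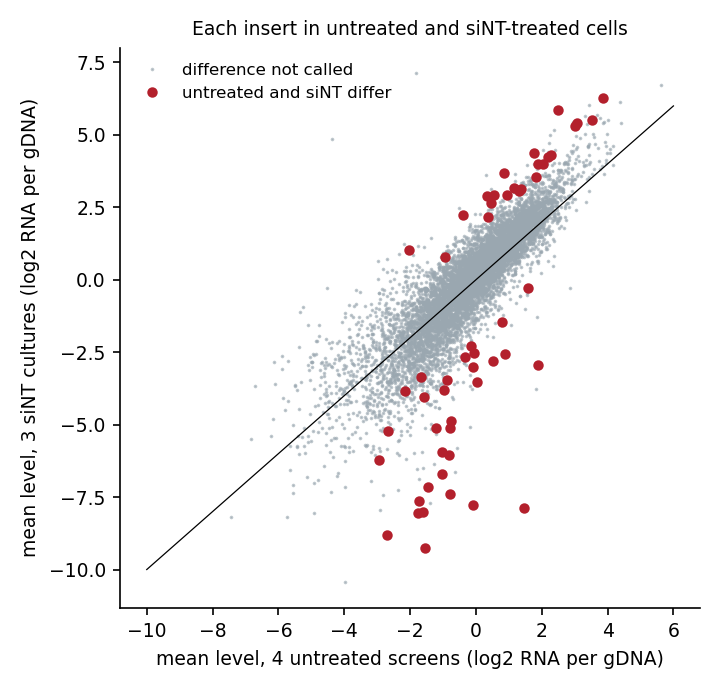
Mean level (log2 RNA per gDNA) of 8291 inserts in the 4 untreated screens (horizontal) and the 3 siNT cultures (vertical), with a line of equal levels. Red points are the 55 inserts whose difference passed the test; 32 lie below the line and 23 above it.

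The inserts with the largest differences that met the rule for naming were these. Insert sequence_11447 was at -2.01, -3.55, -3.48 and -2.68 in screens 1 to 4 and at -6.62, -5.35 and -6.89 in the cultures (log2 difference 3.31, SE 0.52, adjusted p = 0.00664 in edgeR's fit, 0.0586 without culture C). Insert sequence_01439 was at 1.17, 1.143, -0.53 and 1.85 in the screens and at -3.02, -3.61 and -1.17 in the cultures (3.54, SE 0.69, adjusted p = 0.0459). Both were lower in the siNT cultures. That screens and cultures did not overlap was a condition of the rule for naming, not a separate result. Insert sequence_00359 was at 0.85, 0.68, 0.15 and 0.60 in the screens and at 3.01, 2.75 and 2.91 in the cultures (-2.34, SE 0.35, adjusted p = 0.00538, 0.0586 without culture C). Insert sequence_00614, which has a spliced reference, was at 0.60, 0.51, 0.62 and -0.35 and at 1.85, 3.38 and 3.34 (-2.53, SE 0.49, adjusted p = 0.0258). Its gDNA reads in cultures A, B and C were 200, 52 and 54. The levels of 3.38 and 3.34 thus came from cultures just above the minimum for testing, and culture A, with more gDNA reads, was at 1.85. Sequence_00359 and sequence_00614 were both higher in the siNT cultures, and the same rule fixed that they did not overlap the screens. Without the replicate block the calls of sequence_01439, sequence_00359 and sequence_00614 were lost (adjusted p = 0.123, 0.621 and 0.241), at log2 differences of 3.16, -2.58 and -2.21, and those of sequence_01439 and sequence_00614 were also lost without any 1 of several libraries.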

How the data were processed

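The 4 total-RNA libraries at the Pou5f1 antisense site, their 4 gDNA libraries and the 6 siNT libraries were used. The deposited values are counts of reads per reference as the authors made them; the submitters' processing notes name cutadapt 1.14 for trimming and Bowtie2 2.3.4.3 as the aligner. Every count is even, as counting both mates of a pair gives. Reads without a reference, 45.7% to 54.3% of a library, were left out. PCR reads carried no molecular identifier in the files, so counting precision is overstated.

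Unspliced and spliced counts were summed per insert. A fit took inserts that had 50 or more reads in each of its gDNA libraries and used edgeR 4.0.16 (robust quasi-likelihood, TMM) in R 4.3.3, with the screen or culture as a block. An insert was called at an adjusted p under 0.05 (Benjamini-Hochberg). Alternatives included DESeq2 1.42.0. The code was tested on simulated data. The labels name the gDNA of each RNA library; RNA and gDNA libraries of 1 screen deviated together from their group means across inserts, with r of 0.244 to 0.525 (others at most 0.0795) and in siNT cultures at 0.292 to 0.295.

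Named inserts are the 2 per direction with the largest fold change among called inserts with a mean of at least 1000 gDNA reads and a consistent direction. For total RNA against gDNA that meant 1 sign of level in every screen, and only inserts without a spliced reference were ranked; for untreated against siNT it meant that every screen lay on 1 side of all cultures, whatever the sign of the level. The comparisons, lists and rules were chosen with earlier results of these data known; the blocks and stretches of insert numbers were drawn after levels were seen.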

Additional observations from a re-analysis of the deposited data

Results flagged for a closer look

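Of 51 values with 1 reading per screen, 4 had a screen far from the other 3, where chance gives about 1 in 20. The 5th percentile of levels was -5.79 in screen 3 and -3.27 to -3.00 in the others. The value of screen 3 lies near the levels of inserts with no RNA read, which gDNA reads and the prior count set. The level of sequence_03812 was 5.21 in screen 1, on 50 gDNA reads, and 2.57 to 2.99 in the others. The median level of inserts 15001 to 15500 without a spliced reference was -1.92 in screen 4 and -1.33 to -1.27 in the others, and that of inserts 15501 to 16000 was -1.15 in screen 4 and -0.61 to -0.50 in the others.

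By the interaction test, 55 inserts differed in RNA per gDNA between untreated and siNT-treated cells. Among them the log2 difference, untreated minus siNT, was 3.54 for sequence_01439, 3.31 for sequence_11447, -2.53 for sequence_00614 and -2.34 for sequence_00359.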

How the results depend on the processing

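For total RNA against gDNA, 4328 inserts were called, and the count was 1644 of 2910 with at least 200 gDNA reads and 2678 to 4235 with 1 screen left out. Leaving out a screen changed the inserts tested as well, from 10650 to between 10689 (without screen 2) and 14326 (without screen 1). Called higher were 2462, and 1436 with library totals, 847 with at least 200 reads and 1809 to 2334 with 1 screen left out. Called lower were 1866, and 3573 with library totals, 2961 with DESeq2's Wald test, 797 with at least 200 reads, 1196 with no replicate block and 825 to 1901 with 1 screen left out. Without the replicate block all calls were 2963, and of the 8 named inserts 3 lost their call, all between untreated and siNT cells. In siNT cells 6730 were called, and 4032 of 5494 with at least 200 reads. Between untreated and siNT cells 55 of 8291 were called, and 282 with DESeq2's Wald test and 25 with no replicate block. With at least 1 gDNA read 170 of 13381 were called, and with at least 200 reads 52 of 1969. With 1 library pair left out 10 to 129 were called, with 8303 to 10122 inserts tested. The gap of class medians, 1.03, was 0.75 with at least 200 reads and turned to -0.23 on unspliced reads alone, though not within inserts 12001 to 14000 (0.15) or outside them (0.23). The median SD between screens, 0.71, was 0.55 with at least 200 reads, 0.87 with at least 1 and 0.65 to 0.69 with 1 screen left out. Library totals and TMM on inserts without a spliced reference moved the median log2 fold change of all inserts by -0.57 and 0.12. Depth in screen 1 limited which inserts were tested; the cause of the other shifts was not tested.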
